A study of Homo sapiens with 2 samples.

Results

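The type II keratin cluster on chromosome 12 was examined in H3K27ac HiChIP of KYSE180 cells. HiChIP ligates DNA ends that lie close together in the nucleus and captures those that carry a chosen histone mark. H3K27ac marks active promoters and enhancers, so a listed loop joins a pair of acetylated regions that were found ligated to each other. KYSE180 is an established, BRDT-positive line of esophageal squamous cell carcinoma (ESCC). All cells had been transfected with a non-targeting siRNA, and their chromatin was cut with MboI, DpnII and HinfI. The methods describe the loops called as active and associated with p63, a squamous lineage factor, without saying how p63 entered the calling, so the list may not hold every H3K27ac loop. The 2 libraries, labelled 1 and 2, share 1 deposited list of loops and 1 condition. No value below therefore has a replicate spread, no condition could be compared with another, and no test across samples was possible. Expression was not part of this list, so the squamous identity of the line was not checked against RNA.

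The members were all loops with at least 1 bin starting in chr12:52550000-53360000 on hg19, the build given in the submitters' processing notes. These were 84 of the 31950 loops of the list, with 1460 further loops elsewhere on chromosome 12. Each loop joins 2 bins of 2 kb, called anchors, and carries a pair of whole numbers. The first number was read as the contacts between both anchors and the second as the coverage, in counts, of the anchor at the lower position, called the first bin. The sources used here do not name these columns.

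Keratins are the intermediate filament proteins of epithelia. A type II keratin assembles with a type I keratin into a filament, and the pair in use changes with the kind of epithelium and with differentiation. KRT5 is the type II keratin of the basal layer of stratified epithelia, where it pairs with KRT14, and it is a widely used marker of squamous carcinoma. KRT6A, KRT6B and KRT6C are the type II keratins of activated and rapidly renewing epithelium and of skin appendages. KRT7 is a keratin of glandular and ductal epithelium, KRT8 pairs with KRT18 in simple epithelia, and KRT75 belongs to the hair follicle. KRT18 is a type I keratin that lies beside KRT8 in the type II cluster.

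In GENCODE 44 the order of protein-coding genes from KRT80 to KRT18 holds 27 genes, all of which are keratins. KRT80 and KRT7 come first and lie at the low end of the window. Then follow 6 hair keratins, KRT75, KRT6B, KRT6C, KRT6A and KRT5. Between KRT5 and KRT8 lie 12 genes, among them KRT1 and KRT2 of cornifying epidermis and KRT4 of moist stratified epithelium. KRT8 and KRT18 close the row at the high end. Of the 9 genes under study 7 are on the minus strand, so their upstream side is at higher positions, and KRT7 and KRT18 are on the plus strand. Only KRT5 (chr12:52908361-52914243) and KRT6A (chr12:52880958-52887041) had positions on hg19. The annotation at hand is on another build, so the other 7 genes are given by their order alone and were not assigned to bins. The 5′ ends of KRT5 and KRT6A lie 27.2 kb apart.

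The KRT6 genes are close copies of each other. The coding sequence of KRT6A was 97.5% identical to that of KRT6B and 97.9% identical to that of KRT6C, and KRT6B and KRT6C were 98.5% identical. KRT5 was 78.0% identical to KRT6A, and KRT18, the type I keratin, was 47.3% identical to KRT6A. How reads that map to several places were treated is not given in the sources used here, so contacts inside the KRT6 genes are uncertain.

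The sequence before the KRT5 start is shown because the KRT5 promoter carries the loops on which the account turns. The 250 bases upstream of the RefSeq start of KRT5 (GRCh38.p14, minus strand) are printed 5′ to 3′, with a TATA-like run in capitals:
KRT5: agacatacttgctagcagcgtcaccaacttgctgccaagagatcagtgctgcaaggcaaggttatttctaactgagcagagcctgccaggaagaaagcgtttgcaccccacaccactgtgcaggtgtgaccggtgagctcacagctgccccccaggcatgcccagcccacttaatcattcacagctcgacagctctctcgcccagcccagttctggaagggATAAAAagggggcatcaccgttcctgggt
The letters ATAAAA lie from base -29 to base -24 before the start. This run was chosen after the sequence had been read, and 2.26% of 35116 promoters hold it, on the same strand, in their last 50 bases. The sequence table matched 3 of the 9 genes, KRT5, KRT75 and KRT8, and KRT75 holds the same letters from base -31 to base -26. The KRT5 stretch had 56.0% G and C and 6 CG pairs. On both strands it held no TATAAA, no TGANTCA (the core of AP-1 sites), no GCCNNNGGC (the core of AP-2 sites), no GGGCGG (the core of SP1 sites) and no match to the p53-family consensus, which p63 shares. In all promoters of this length these were found in 10.7, 6.57, 19.8, 42.6 and 4.02%, respectively. No match means only that these letters are not in this window. In the same stretch before its own start, KRT75 held 1 GCCNNNGGC and 1 GGGCGG, and KRT8 held none of the 5 motifs. ATAAAA can overlap TATAAA, since both end in a run of A after TA.

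Both genes that could be placed had loops at their promoters, and more were listed at KRT5. The KRT5 promoter (chr12:52912001-52916000, every bin closer than 1 kb to the 5′ end) had 9 loops (exact 95% Poisson interval 4.12 to 17.1) with 11 contacts. The KRT6A promoter (chr12:52886001-52890000) had 6 loops (2.20 to 13.1) with 6 contacts. These intervals overlap, so a difference between the promoters was not detectable at this depth. Among the 57530 pairs of neighbouring bins that hold a loop, 2.06% reached the number of KRT5 and 6.06% that of KRT6A. Intervals cover counting error only, since 1 list of 1 condition has no replicate spread. They also take the counts as independent, which was not checked and does not hold strictly, since 1 loop between the promoters is counted for both.

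The KRT5 promoter had partners on both sides. On the downstream side, towards KRT6A and the low end, there were 5, and on the upstream side, towards KRT8 and KRT18, there were 4. The strongest were 2 loops of 2 contacts each. The first joined the KRT5 promoter to chr12:52784001-52786000, 130 kb away on the downstream side. The second joined it to chr12:53264001-53266000, 350 kb away on the upstream side. Each count of 2 has a Poisson interval of 0.242 to 7.22 contacts.

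The other 7 KRT5 promoter loops had 1 contact each, which has an interval of 0.0253 to 5.57. Downstream they reached the KRT6A promoter at 26 kb, chr12:52846001-52848000 at 68 kb, chr12:52788001-52790000 at 126 kb and chr12:52538001-52540000 at 376 kb. Upstream they reached chr12:52976001-52978000 at 62 kb, chr12:53320001-53322000 at 408 kb and chr12:53764001-53766000 at 850 kb. Thus 7 of the 9 partners lay inside the keratin window and 1 lay on either side of it.

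All 6 partners of the KRT6A promoter lay inside the window, and each rested on 1 contact. On the downstream side they were at 100 and 250 kb. On the upstream side 3 of them, at 26, 30 and 34 kb, fell among the contiguous anchors that start at the KRT5 promoter. The fourth, at 376 kb, was the bin chr12:53264001-53266000 that also formed a loop of 2 contacts with the KRT5 promoter.

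**Figure D1:**
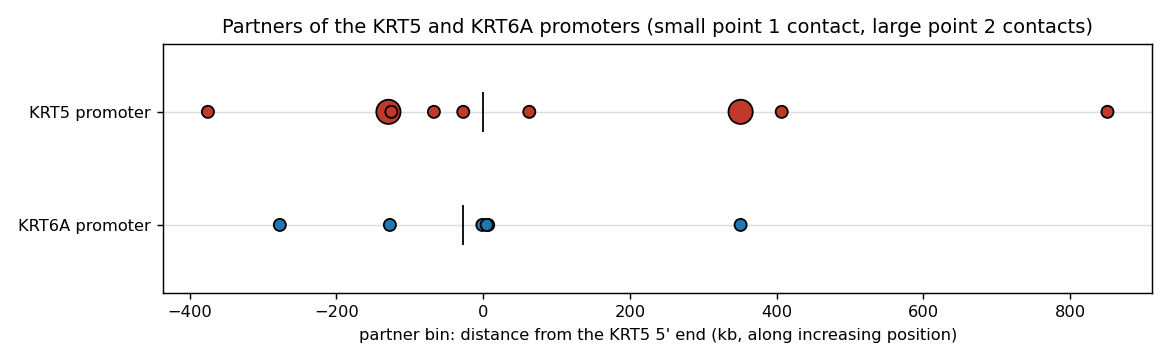
Partner bins of the KRT5 promoter (9 loops, upper row) and of the KRT6A promoter (6 loops, lower row), plotted by the distance in kb of the bin's middle from the KRT5 5′ end; vertical ticks mark the 5′ ends, small points 1 contact and large points 2 contacts. Both promoters had a partner at 350.8 kb and partners between -129.2 and -125.2 kb.

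Some partners of the KRT5 and KRT6A promoters were thus the same or close to each other. How often promoters this close share partners was not tested. They shared 1 exact partner bin, which is 11.1% of the 9 partners of KRT5 and 16.7% of the 6 partners of KRT6A. At KRT6A this loop ended in chr12:52888001-52890000, the bin upstream of the one that holds the 5′ end, with a coverage of 4. With only the bin of each 5′ end, KRT5 had 7 loops and KRT6A 4, and no exact partner bin was shared. Within a tolerance of 4 kb, 3 of 9 KRT5 partners lay near a KRT6A partner, and 2 of 6 KRT6A partners lay near a KRT5 partner. The shared bin chr12:53264001-53266000 had 3 loops with 4 contacts in all. All 3 ended between the KRT6A promoter and the upstream edge of the KRT5 anchors, at the KRT6A promoter (1 contact), the KRT5 promoter (2 contacts) and chr12:52918001-52920000 (1 contact). Its neighbour chr12:53262001-53264000 also had a loop to this stretch, with 1 contact to chr12:52916001-52918000. The shared bin lies 350.8 kb on the KRT8 and KRT18 side of the KRT5 5′ end, and which gene it overlaps was not determined.

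Both promoters also had partners about 130 kb on the downstream side of KRT5, in neighbouring bins but not in the same bin. The 3 touching anchors at chr12:52784001-52790000 had 7 loops with 8 contacts. Of these, 2 loops with 3 contacts ended at the KRT5 promoter, 1 at the KRT6A promoter and 1 at chr12:52934001-52936000, upstream of KRT5. The other 3 went to a pair of bins below the window that is described further on.

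A few loops were also listed between KRT5 and KRT6A. Between the gene bodies with 5 kb on each side there were 2 loops (Poisson interval 0.242 to 7.22), each with 1 contact and spans of 26 and 30 kb. Both ends of the loop of 30 kb lay upstream of the gene bodies. With 10 kb on each side of the genes there were 3 loops. How often regions this close are joined in the list was not tested. The KRT5 region of 18 kb had 22 loops (13.8 to 33.3) and the KRT6A region of 20 kb had 6 (2.20 to 13.1), and these intervals did not overlap. The 2 loops between the regions are counted in both. All 6 loops of the KRT6A region began in its promoter bins, so the rest of the KRT6A gene held no listed anchor. KRT6A is also the gene with near-identical copies beside it. Coverage differed as well, with 16 and 4 counts in the first bins of the KRT6A region. In those of the KRT5 region it was 8, 7, 16, 35, 36 and 12 counts. The part of likeness or coverage in the difference between the regions was not tested.

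The 5′ end of KRT5 lay in the longest run of touching anchors of the window. This run, chr12:52912001-52922000, was 10 kb long and reached 7.8 kb upstream of KRT5, and 99.5% of the runs in the whole list were as short or shorter. It had 18 loops with 20 contacts. The part upstream of the promoter, chr12:52916001-52922000, had 9 loops with 1 contact each, so as many loops ended just upstream of KRT5 as at its promoter. These 9 reached the KRT6A promoter (2 loops), the upstream bins near 350 kb (2 loops), the pair of bins below the window (1 loop), chr12:52906001-52908000, just beyond the 3′ end of KRT5, at 10 kb (1 loop) and bins 148, 196 and 216 kb downstream (1 loop each). A further 23 loops passed over the run without ending in it.

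**Figure D2:**
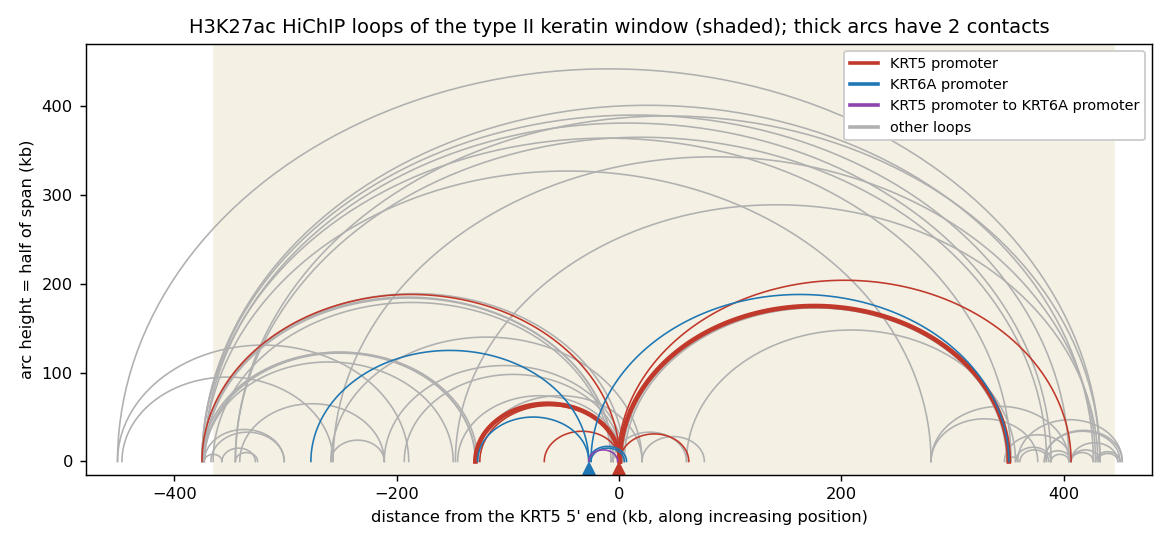
Arcs join the 2 anchors of a loop, drawn by distance in kb from the KRT5 5′ end, with a height that grows with the span; 67 of the 84 loops are drawn, and the 17 that leave the 480 kb on either side are not. Red arcs start at the KRT5 promoter, blue at the KRT6A promoter and purple joins both; thick arcs have 2 contacts, the shading marks the window, and the long arcs from the left edge start mostly in the pair of bins just below it.

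Over the whole window there were 56 anchors in 27 runs, with 1 to 8 loops each and a median of 2, against a median of 1 over all 34902 anchors. Anchors with a single loop made up 39.3% (95% Wilson interval 27.6 to 52.4%) in the window and 59.2% (58.7 to 59.7%) in the list. The window is dense, as given further on, and this share was not compared with windows of like density. Anchors with at least 6 loops numbered 2 of 56, or 3.57% (0.985 to 12.1%), against 3.05% of all anchors. The share of such anchors was thus near that of the list. These 2 were chr12:53320001-53322000 at the high end, with 8 loops, and chr12:52914001-52916000, the bin of the KRT5 5′ end, with 7.

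Coverage was highest in and next to the same 2 bins. Among the 39 first bins in the window coverage had a median of 9 (interquartile range 7 to 15) against 11 (7 to 18) in the rest of chromosome 12 and 12 (8 to 20) over all first bins. The highest value was 39 (Poisson interval 27.7 to 53.3) at chr12:53320001-53322000. The bin of the KRT5 5′ end had 35 (24.4 to 48.7) and the next bin upstream 36 (25.2 to 49.8), and 8.81 and 8.29% of all first bins were as high. The first bin of the KRT6A promoter had 16 and the second 4. The 2 bins with at least 6 loops thus also had high coverage. Not every bin with high coverage had many loops. The bin next to the KRT5 5′ end had 36 counts and 4 loops, and chr12:53342001-53344000 had 34 counts and 2 loops. The part of coverage in the loop counts was not tested.

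**Figure D3:**
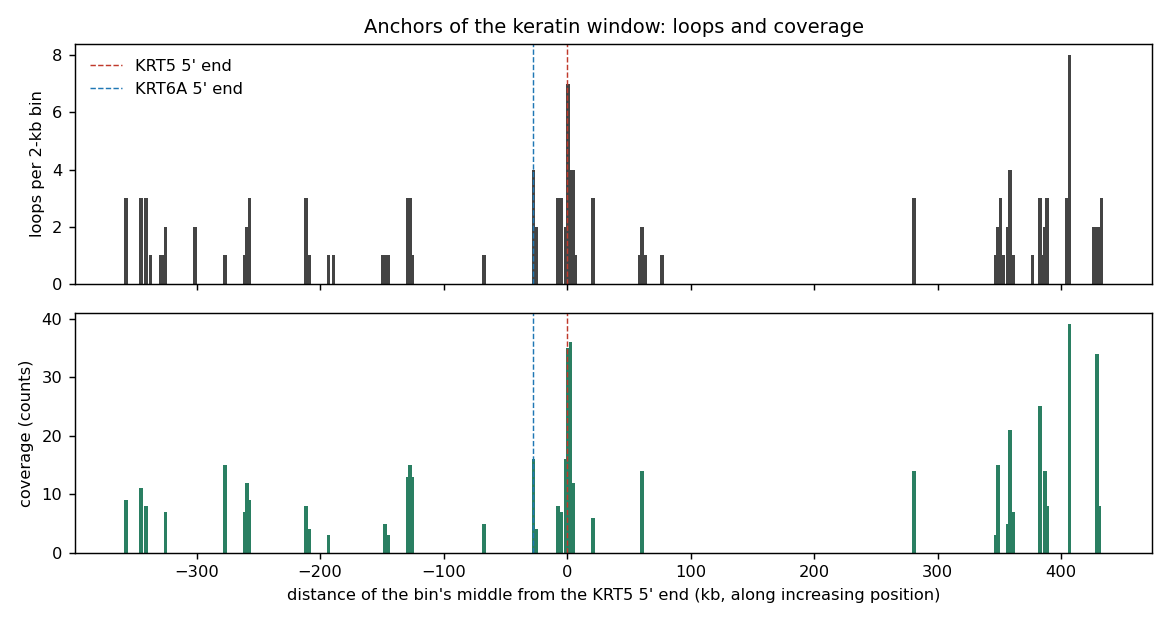
Loops per 2-kb bin (upper panel) and coverage in counts of the bins that are a first bin of a loop (lower panel), by distance in kb of the bin's middle from the KRT5 5′ end; dashed lines mark the 5′ ends of KRT5 and KRT6A. The peaks at 0.8 and 406.8 kb had 7 and 8 loops, and no anchor lay between 77.8 and 279.8 kb.

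Anchors at most 20 kb apart were grouped into 10 clusters, numbered by position. Only anchors inside the window were grouped, so its edges cut the outer clusters. Anchors at chr12:52538001-52542000 lie within 20 kb of cluster 1, and those at chr12:53362001-53368000 within 20 kb of cluster 10. The counts of loops inside these clusters and to positions outside the window therefore depend on where the window ends. Cluster 7, chr12:52886001-52936000, runs from the KRT6A promoter to 21.8 kb upstream of KRT5. It held 10 anchors and 29 of the 84 loops, or 34.5% (Wilson interval 25.2 to 45.2%). Of these 29, 4 stayed inside the cluster. The shortest loop of the whole list spans 10 kb, so closer pairs of bins inside a cluster are not counted. Another 18 went to other clusters, 5 to positions below the window and 2 to positions above it.

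Cluster 10, chr12:53260001-53348000, lies at the high end where KRT8 and KRT18 are. It held 18 anchors and 36 loops, or 42.9% (32.8 to 53.5%), of which 8 stayed inside. Cluster 10 sent 12 loops to other clusters, 7 below the window and 9 above it. The 8 loops of its most connected bin, chr12:53320001-53322000, ran to the KRT5 promoter, to 4 other bins of the window between 20 and 60 kb away, and to 3 bins above the window at 42, 146 and 3154 kb.

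Cluster 7, with KRT5 and the KRT6A promoter, and the KRT8 and KRT18 end were joined by 5 loops (Poisson interval 1.62 to 11.7), which had 6 contacts and spanned 346 to 408 kb. As many, which also had 6 contacts and spanned 100 to 148 kb, joined cluster 7 to cluster 5 (chr12:52764001-52790000) on its downstream side. Cluster 8 (chr12:52972001-52992000) on the upstream side had 3 loops to cluster 7, cluster 3 and cluster 4 had 2 each, cluster 6 had 1, and clusters 1, 2 and 9 had 0. A count of 0 allows up to 3 loops by a one-sided limit.

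**Figure D4:**
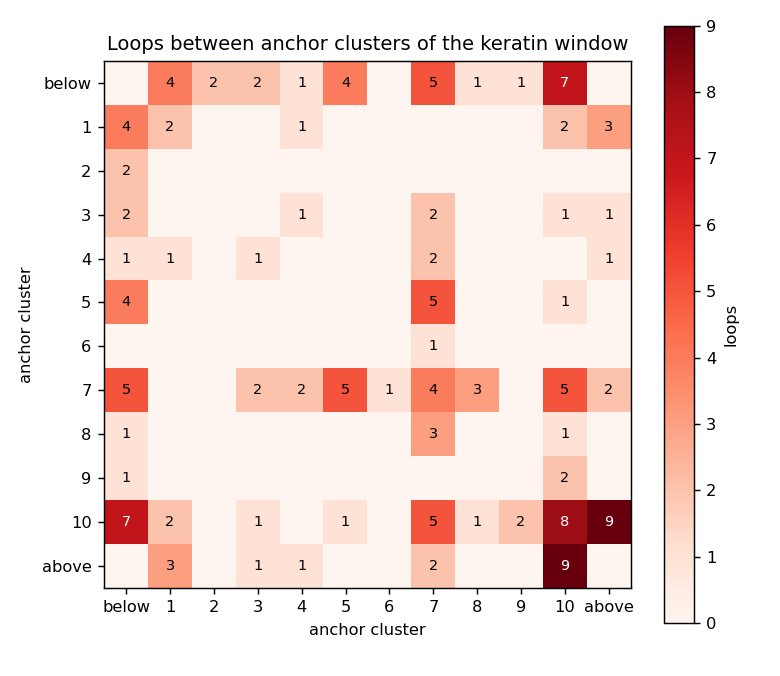
Number of loops between the 10 anchor clusters of the window, numbered by position, and the regions below and above it; empty cells have 0 loops. Cluster 7 holds KRT5 and the 5′ end of KRT6A, and cluster 10 lies at the KRT8 and KRT18 end, and these 2 rows hold most of the loops, with 5 between them.

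The stretch between clusters 7 and 10 held the anchors of clusters 8 and 9 and long gaps. The longest gap without an anchor was 202 kb, chr12:52992001-53194000, which begins 77.8 kb upstream of KRT5, and 25 loops passed over it. In the gene order this side of KRT5 holds the 12 keratins from KRT71 to KRT78, which serve hair sheath, cornifying and moist stratified epithelium. Beyond the gap a single anchor, chr12:53194001-53196000, had 3 loops, and another 64 kb without anchors followed. On the other side of KRT5, the 96 kb below the KRT6A promoter, chr12:52790001-52886000, held 1 anchor in 48 bins. KRT6C, KRT6B and KRT75 follow KRT6A on this side. A missing anchor means only that no loop of the list ended there.

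Of the 84 loops 41 (48.8%, Wilson interval 38.4 to 59.3%) had both ends in the window, 27 had the other end below it and 16 above it. Of the 27, 15 started in a pair of touching bins, chr12:52538001-52542000, which lie 8 kb below the window. These bins had 57 and 61 counts of coverage, more than any first bin inside the window. Of their 17 loops in the list 15 entered the window, with 1 contact each, and reached 13 bins at 16 to 802 kb. The other 2 passed over the window to chr12:53366001-53368000. The pair was picked as the bins below the window with the most loops into it, so the share that entered does not measure a preference.

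Loops from this pair of bins, called the hub here, ended mostly in clusters 5, 7 and 10. They ended in cluster 5 (4 loops), in cluster 7 (4 loops), in cluster 10 (4 loops) and once each in clusters 1, 2 and 9. None ended in clusters 3, 4, 6 or 8. At KRT5 they reached chr12:52908001-52910000 in the gene body (2 loops), the promoter at 376 kb and chr12:52918001-52920000 upstream. The KRT6A promoter had 0 loops to the hub, which allows up to 3 loops by the same one-sided limit. The 3 clusters to which the hub sent 4 loops each were also joined to one another, by 5 loops between clusters 5 and 7, 5 between clusters 7 and 10, and 1 between clusters 5 and 10. The gene at the hub was not determined.

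Above the window 6 loops, all from cluster 10, ended at chr12:53362001-53368000, in 3 touching bins with 2 loops from the window each. Farther out, chr12:53764001-53766000 had 2 loops in the whole list, to the KRT5 promoter at 850 kb and to chr12:52704001-52706000 at 1060 kb. The third loop with 2 contacts left the window here as well, from chr12:52652001-52654000 to chr12:53442001-53444000 over 790 kb. The members spanning 1 Mb or more numbered 10, with 1 contact each, and the longest was 3154 kb. They made up 11.9% (Wilson interval 6.6 to 20.5%) of the window loops. The share was 11.7% in the rest of the list and 11% in the rest of chromosome 12, so it was near that found elsewhere.

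Contacts per loop were as low as elsewhere. In the window 81 loops had 1 contact and 3 had 2, so 3.57% (Wilson interval 1.22 to 9.98%) had 2 or more, against 3.36% of all loops and 3.56% (2.73 to 4.64%) in the rest of chromosome 12. The 3 loops with 2 contacts spanned 130, 350 and 790 kb. At 10 to 50 kb, where 7.27% (6.78 to 7.80%) of the other loops of the list had 2 or more, none of 18 keratin loops did, with an upper limit of 17.6%. From 200 kb to 1 Mb, 2 of 34 did (5.88%, 1.63 to 19.1%), against 1.17% (0.967 to 1.42%) in the rest of the list and 0.783% (0.267 to 2.28%) in the rest of chromosome 12. The keratin interval lay above that of the rest of the list but overlapped that of the rest of chromosome 12, and the share rests on 2 loops, 1 of which is the KRT5 loop at 350 kb.

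Loops of the window were long in comparison with the list. The median span was 234 kb (interquartile range 65 to 662 kb) against 108 kb (34 to 350 kb) in the rest of chromosome 12, and 44 of 84 (52.4%, 41.8 to 62.7%) spanned at least 200 kb against 39.3% of all loops. A loop counts when either end is in the window, which favours long loops. When each end in the window was counted once, the median was 148 kb (48 to 376 kb) over 125 ends, against 120 kb (36 to 398 kb) over all ends. Of the 11893 equally long windows with at least 60 loops, 23.7% had a median span as high as 234 kb. A median this high was thus common among dense windows.

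**Figure D5:**
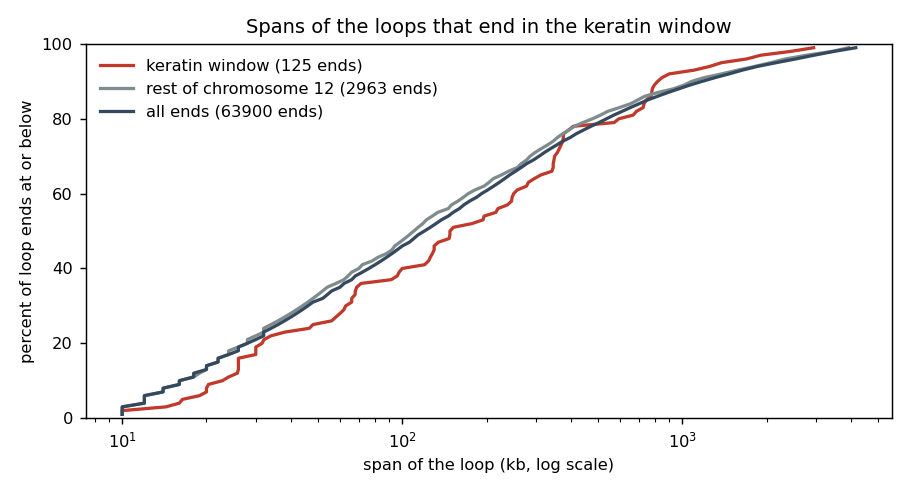
Cumulative share of loop ends by the span of their loop (kb, log scale) for the 125 ends in the window, the 2963 ends in the rest of chromosome 12 and all 63900 ends. The keratin ends had the longest median, 148 kb against 110 and 120 kb, while their upper quartile of 376 kb lay between those of the rest of chromosome 12 (358 kb) and of all ends (398 kb).

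The window itself was dense. Windows of 810 kb were moved along every chromosome in steps of 10 kb, and of the 192291 with at least 1 loop 3.46% had 84 loops or more, with a median of 7. On chromosome 12 alone 2% of 10354 windows had as many. With distinct anchors in place of loops the share was 3.97%. Overlapping windows are not independent, so these shares describe the place of the keratins in the list.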

How the data were processed

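H3K27ac HiChIP was measured in KYSE180 cells with a non-targeting siRNA (2 libraries, 1 list). The authors used HiC-Pro for alignment and read filtering and FitHiChIP (Peak-To-All) to call active loops associated with p63 (how p63 was used is not given in the sources used here), and kept loops whose ends both carry H3K27ac; per the labels the build is hg19, and versions and thresholds are not given in the sources used here. The deposited counts are unnormalized contacts per loop and coverage of the first bin (contacts exceeded it in 0 first bins). The depth of the libraries is unknown.

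KRT5 and KRT6A were placed by hg19 positions that came with the choice of the region; gene order, strand and coding sequences came from GENCODE 44 and promoters from RefSeq, both on GRCh38, and no position was converted. A hub anchor had at least 6 loops. Shares have 95% Wilson and counts exact Poisson intervals. Coding sequences, used in place of the planned proteins, were aligned globally, and identity is per alignment column. Loop counting was tested on simulated data. The named genes, the window and the lists were chosen with earlier results of these data known. Alternatives were promoter width, minimum contacts, minimum span, cluster gap, window measure and 2 chosen after seeing the data. Biopython 1.88, scipy 1.17.1, pandas 2.3.3, matplotlib 3.10.9 and numpy 2.4.6 ran under Python 3.11.15.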

Additional observations from a re-analysis of the deposited data

How the results depend on the processing

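The 10 results were recomputed 35 times. A count was taken as moved when it changed by over 1.5 times, and a share or median when it left its 95% interval. By these limits 16 values moved and 19 did not, although with wide intervals these include the share of anchors with at least 4 loops (10.7% against 3.57% with at least 6), the median coverage once per loop (12 against 9) and the loops between both genes with 10 kb on each side (3 against 2). With at least 2 contacts, 3 window loops with a median span of 350 kb were left, 2 at the KRT5 promoter, 0 at the KRT6A promoter and 0 between both gene regions, so most loops here rest on single contacts. With both bins in the window there were 41 loops with a median span of 100 kb. The KRT5 promoter had 20 loops within 5 kb of the 5′ end, 15 over the gene body with 1 kb and, in an alternative chosen after seeing the data, 18 over the whole run of touching anchors. Wider windows hold more anchors by construction. The KRT6A promoter kept 6 loops under these 3 widths. With only the bin of the 5′ end, the KRT5 promoter had 7 loops and the KRT6A promoter 4. A window starting 20 kb lower, also chosen afterwards, had 88 loops. Gaps of 10 and 40 kb gave 19 and 5 clusters in place of 10. The share of windows as dense was 3.97% by anchors, 2% on chromosome 12 and 3.22% for loops of at least 20 kb. Anchors with at least 10 loops made up 0% of the window. No paired analysis was possible because replicates 1 and 2 have the same condition and a single list, and no replicate could be left out for the same reason.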
